A study of Mus musculus with 16 samples.

Results

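The RNAs described here are 9 noncoding RNAs: Malat1, Neat1, Gm26917, Gm42418, Gm23935, Gas5, Snhg1, Rmrp and Rn7sk. All 9 were picked by name because some noncoding genes took a large share of the reads of these libraries. Their shares of counts are therefore a description and not a finding, and those of Neat1, Gas5 and Snhg1 were small. The 9 names match 10 rows of a count table of 55450 genes, since Rmrp is listed as a pair of records, and 8 of the 9 names had counts. RNA came from CD4+ and CD8+ tumor-infiltrating T lymphocytes (TILs) of subcutaneous tumors of B16F10, a transplantable mouse melanoma line. The tumors grew in wild-type (WT) C57BL/6J mice or in Sirt2-/- mice, which lack the NAD+-dependent deacetylase SIRT2 in all tissues from the germline on, so that host cells other than T cells lack it as well. The study's methods describe young adult mice of matched age and sex, and TILs freed by collagenase, a Percoll gradient and CD3ε beads, while how CD4+ and CD8+ cells were then separated is not detailed. There were 4 libraries in each of 4 groups, WT CD4+, Sirt2-/- CD4+, WT CD8+ and Sirt2-/- CD8+, which makes 16 libraries of rRNA-depleted total RNA.

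Most RNA in a cell is ribosomal RNA, made in the nucleolus by RNA polymerase I as a long precursor and then cut and modified with the help of small nucleolar RNAs. Malat1 and Neat1 are long nuclear RNAs made by RNA polymerase II from neighbouring genes; Malat1 gathers in nuclear speckles, which store splicing factors, and Neat1 is the scaffold of paraspeckles. Gas5 and Snhg1 are host genes whose introns hold small nucleolar RNAs, and their spliced transcripts are cleared by nonsense-mediated decay. Rn7sk is the 7SK small nuclear RNA, which holds the kinase P-TEFb inactive and so restrains transcription elongation, and Rmrp is the RNA part of RNase MRP, which cuts the ribosomal RNA precursor. In T cells, activation and growth go with high rates of ribosome synthesis.

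Among these RNAs, the identity of Gm23935 and of Rmrp depends on the sequence itself, so the sequences are shown first. Gm23935 is annotated as a miRNA gene of 57 bases at chr16:11144125-11144181 (GRCm38, plus strand), inside an intron of Zc3h7a, which is transcribed from the other strand. The same 57 bases also make up Gm24270 on chromosome 9 and Gm24245 on chromosome 4. Gm24187 on chromosome 13 is 1 edit away, and Gm25911 on chromosome 1 is 2 edits away, 1 of them a missing base. The GENCODE transcript sequences follow, 5′ to 3′, with capitals at each base that differs from Gm23935.
Gm23935: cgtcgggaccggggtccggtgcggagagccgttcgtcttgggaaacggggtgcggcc
Gm24187: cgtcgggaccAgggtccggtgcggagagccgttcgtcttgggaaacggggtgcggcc
Gm25911: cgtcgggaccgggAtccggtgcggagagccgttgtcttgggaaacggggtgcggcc
The counts on these copies were very unequal. Gm23935 held a mean of 3.67% of all counts over the 16 libraries, against 0.0157% on Gm24270 and 7.27e-05% on Gm24245, whose listed bases are identical to it. Gm24187 held 0.0139% and Gm25911 held 0.0154%. A further relative, Gm23388, is 4 edits away and had 4 counts in all 16 libraries together. A read that lies wholly within the 57 bases would fit the identical records equally well. The study's methods describe longer reads, so an untrimmed read also covers bases outside the record, which were not compared here. The share of Gm23935 is thus the share the counting gave to this record and is uncertain as a level of 1 gene.

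The Rmrp records overlap on the minus strand of chromosome 4. A ribozyme record spans chr4:43492788-43493058 and a lincRNA record spans chr4:43492783-43493063 (GRCm38), so that 271 of the 281 bases of the longer one belong to both. The longer transcript is shown with the shared bases in capitals.
Rmrp: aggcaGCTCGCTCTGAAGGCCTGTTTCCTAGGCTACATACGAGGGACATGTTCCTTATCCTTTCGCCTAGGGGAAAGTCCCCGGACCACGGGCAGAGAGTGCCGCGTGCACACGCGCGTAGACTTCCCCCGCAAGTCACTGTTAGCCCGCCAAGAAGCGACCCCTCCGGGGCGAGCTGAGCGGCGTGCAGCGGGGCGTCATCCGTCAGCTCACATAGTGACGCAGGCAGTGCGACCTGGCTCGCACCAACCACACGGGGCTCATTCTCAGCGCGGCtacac
Both records had 0 counts in all 16 libraries. In this table, all 765 genes whose every exonic base lies in another gene on the strand were at 0 in all 16 libraries, against 46.6% of the 52094 genes that share no exonic base. Among small noncoding RNA types the shares at 0 were 100% of 521 and 71.1% of 5302. The value of 0 therefore gives no level for Rmrp, and Rmrp enters no comparison.

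Gm26917 and Gm42418 lie next to each other on the plus strand of chromosome 17, at chr17:39843013-39846341 and chr17:39846958-39848788 (GRCm38). Both are annotated as lincRNAs. RefSeq places Rn18s-rs5, a record named for small-subunit ribosomal RNA with Gm42418 among its synonyms, at chr17:39846354-39848202. It begins 13 bases after the end of Gm26917 and holds 1245 bases, or 68%, of Gm42418. On the minus strand, CT010467.1, annotated as ribosomal RNA, covers the whole of Gm42418, and AY036118 lies inside CT010467.1 and had 0 counts. The map of the records shows how closely they abut.

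**Figure D1:**
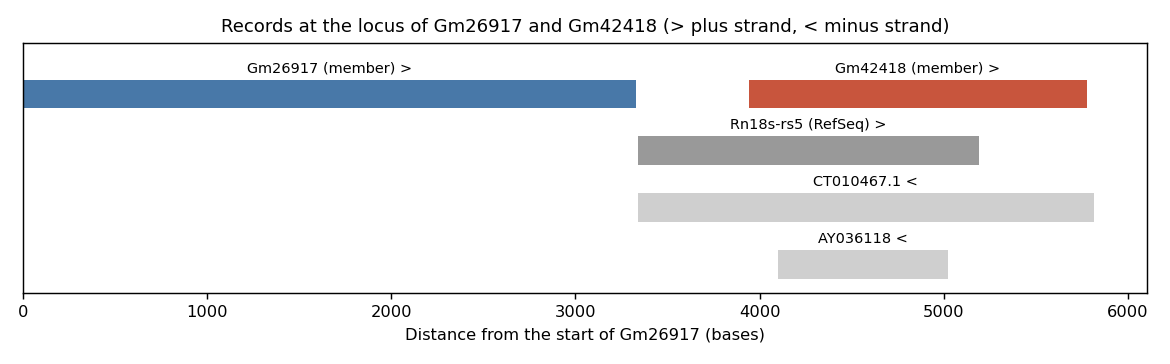
Map of the annotated records around Gm26917 and Gm42418, drawn to scale, with the distance in bases from the start of Gm26917 on the x axis and 1 record per bar. Gm26917 ends 13 bases before Rn18s-rs5, which holds 68% of Gm42418.

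The other members have a single record each. Malat1 (chr19:5795690-5802672) and Neat1 (chr19:5824708-5845478) are both on the minus strand, 22036 bases apart. Snhg1 is at chr19:8723475-8726443 on the plus strand, Gas5 at chr1:161034422-161038539 on the plus strand and Rn7sk at chr9:78175303-78175633 on the minus strand. Zbtb37 overlaps Gas5 from the opposite strand. Small nucleolar RNA genes on the same strand share 17.8% of the exonic bases of Gas5 and 20.9% of those of Snhg1. How reads on these shared bases were counted was not tested, and shares per 1 kb of exon include these bases in the length. Rn7sk has related copies: 72.8% of its 31-base stretches also occur in another transcript of the annotation. The copy sharing the most of them, Gm24447, held a mean of 0.000487% of counts.

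Total counts per library ranged from 28000949 to 62407851. With each read taken as independent, the 95% Wilson interval of a share reached at most 11.8% of the value to either side for Snhg1. For the other members it reached at most 3.31%. The reads carry no molecular identifiers, so copies of a molecule cannot be told apart and the error of counting may be larger. Sirt2 had 1196 to 2272 counts in the WT libraries. It had 0 in Sirt2-/- CD4+ replicate 4 and 322 to 553 in the other Sirt2-/- libraries, which thus kept some Sirt2 counts. The labelled cell types were borne out by their markers, with summed CPM (a gene's counts scaled to an equal library size) of Cd4, Zbtb7b and Cd40lg of 390 to 742 in the CD4+ groups and 0.806 to 12.3 in the CD8+ groups, and of Cd8a and Cd8b1 of 15.1 to 67.0 and 1498 to 2029. The 8 T cell markers summed to 1240 to 3047 CPM. Sirt2-/- CD4+ replicate 4 had counts on 8169 genes although it had the largest total, WT CD4+ replicate 1 on 12587 and WT CD8+ replicate 1 on 14411, against 17730 to 22138 in the other 13. These 3 libraries are included unless stated otherwise. The 4 Y-linked genes (Ddx3y, Eif2s3y, Kdm5d and Uty) summed to 6.07 to 306 CPM in the WT libraries and to at most 0.468 CPM in the Sirt2-/- libraries. Xist was at 69.5 and 61.8 CPM in replicate 2 of WT CD4+ and WT CD8+ TILs and at 397 to 1330 CPM in the other libraries. Y-linked counts thus went with the genotype, although the methods describe matched sex, and the part of sex in the genotype comparisons was not tested.

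Over the 16 libraries, Gm26917 took the largest share of counts of any gene, with a mean of 5.37% and a range of 1.55% to 10.01%. Gm23935 ranked 3 with 3.67%, Gm42418 ranked 5 with 1.46%, Malat1 ranked 6 with 0.824% and Rn7sk ranked 17 with 0.222%. Neat1 (0.0232%, rank 748), Gas5 (0.0121%, rank 1640) and Snhg1 (0.00199%, rank 6486) were far lower. The mitochondrial ribosomal RNAs mt-Rnr2 and mt-Rnr1, which are not among the 9, took ranks 2 and 4 with 3.84% and 2.25%. Together the 8 RNAs with counts took a median of 10.2% of the counts of a library, from 9.02% to 24.6%. Per 1 kb of exon, the mean share was 64.5% for the 57-base Gm23935, 1.61% for Gm26917, 0.795% for Gm42418, 0.670% for Rn7sk, 0.118% for Malat1, 0.00321% for Gas5, 0.00112% for Neat1 and 0.000669% for Snhg1. Gm23935 is shorter than the reads, so its value on this scale is not comparable with the others. The order on the length scale put Rn7sk above Malat1 and Gas5 above Neat1, the reverse of their shares.

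Over the 16 libraries the highest share was 27.8 times the lowest for Gm23935, 15.7 times for Gm42418 and 6.46 times for Gm26917, against 2.43 to 5.35 times for Malat1, Neat1, Gas5 and Rn7sk. The share of Gm26917 was 2.96%, 4.15%, 4.43% and 10.01% in WT CD4+ replicates 1 to 4 and 7.56%, 4.44%, 4.23% and 1.55% in the Sirt2-/- CD4+ replicates. In WT CD8+ replicates it was 4.83%, 5.41%, 5.77% and 7.08%, and in Sirt2-/- CD8+ replicates 9.14%, 3.45%, 5.25% and 5.68%. All 4 groups overlapped in Gm26917, and the mean was between 4.44% ± 2.46 (SD, n = 4) in Sirt2-/- CD4+ and 5.88% ± 2.38 (SD, n = 4) in Sirt2-/- CD8+ TILs.

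The share of Gm42418, the neighbour that overlaps the ribosomal RNA record, was 1.66%, 0.658%, 0.774% and 1.70% in WT CD4+ replicates 1 to 4 and 0.898%, 0.660%, 0.600% and 9.45% in the Sirt2-/- CD4+ replicates. It was 1.16%, 0.663%, 0.766% and 0.919% in WT CD8+ and 1.07%, 0.833%, 0.655% and 0.833% in Sirt2-/- CD8+ replicates. A single library, Sirt2-/- CD4+ replicate 4, stood far above all others. In that library Gm26917 had 0.164 counts for each count of Gm42418, against 1.78 to 8.54 in the other 15. The antisense record CT010467.1 had 1.99% to 8.25% of the counts of Gm42418 in the other CD4+ libraries, 0.846% to 9.13% in the CD8+ libraries and 6.78e-05% in Sirt2-/- CD4+ replicate 4.

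The share of Gm23935 was 3.14%, 3.24%, 3.26% and 11.8% in WT CD4+ replicates 1 to 4 and 3.37%, 2.77%, 3.02% and 0.423% in the Sirt2-/- CD4+ replicates. In the CD8+ groups it lay between 2.90% and 4.80% in all 8 libraries, with 2.90%, 3.47%, 3.01% and 3.54% in WT and 3.56%, 4.80%, 3.47% and 3.07% in Sirt2-/- replicates. The high value in WT CD4+ replicate 4 went with the highest share of Gm26917 in the series, in a library with more than 15000 genes detected. Together the 3 records took 23.5% of the counts of that library, against 7.76% to 13.8% in the other 15.

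**Figure D2:**
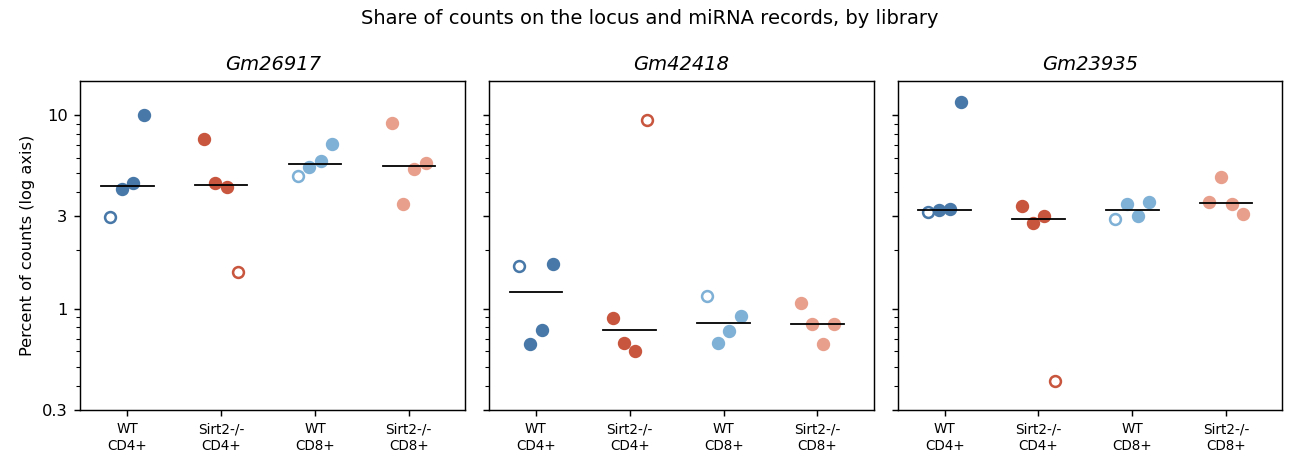
Percent of counts on Gm26917, Gm42418 and Gm23935 in each of the 16 libraries (log y axis), with replicates 1 to 4 from left to right in each group, open circles for the 3 libraries with under 15000 genes detected and bars at the group medians. Sirt2-/- CD4+ replicate 4 has 9.45% of its counts on Gm42418 and the lowest shares of the other pair, and WT CD4+ replicate 4 has the highest shares of Gm26917 and Gm23935.

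The share of Malat1, the nuclear speckle RNA, was 1.19%, 0.809%, 1.01% and 0.872% in WT CD4+ replicates 1 to 4 and 0.816%, 0.912%, 0.866% and 1.65% in the Sirt2-/- CD4+ replicates. In CD8+ TILs it was 0.990%, 0.447%, 0.685% and 0.482% in WT and 0.530%, 0.804%, 0.446% and 0.674% in Sirt2-/- replicates. Every Sirt2-/- CD8+ library was below every Sirt2-/- CD4+ library, while in WT mice CD8+ replicate 1 reached into the CD4+ range. That library and Sirt2-/- CD4+ replicate 4, the highest of all, are among the 3 with few genes detected.

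Neat1, the paraspeckle scaffold, had shares of 0.0564%, 0.0220%, 0.0284% and 0.0283% in WT CD4+ replicates 1 to 4 and of 0.0244%, 0.0214%, 0.0238% and 0.0250% in the Sirt2-/- CD4+ replicates. In CD8+ TILs it had 0.0407%, 0.0107%, 0.0194% and 0.0124% in WT and 0.0139%, 0.0185%, 0.0129% and 0.0137% in Sirt2-/- replicates. As for Malat1, the Sirt2-/- groups of the 2 cell types did not overlap, and the highest value of each WT group was in its replicate 1. There were 21.1 to 66.0 counts of Malat1 for each count of Neat1 (median 36.6 over 16 libraries). The lowest ratios, 21.1 and 24.3, were in replicate 1 of both WT groups, and the highest was in Sirt2-/- CD4+ replicate 4.

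The share of Rn7sk was 0.386%, 0.263%, 0.289% and 0.261% in WT CD4+ replicates 1 to 4 and 0.292%, 0.204%, 0.269% and 0.0722% in the Sirt2-/- CD4+ replicates. In CD8+ TILs it was 0.269%, 0.112%, 0.174% and 0.164% in WT and 0.190%, 0.246%, 0.198% and 0.160% in Sirt2-/- replicates. WT CD4+ libraries were at or above 0.261%, and of the WT CD8+ libraries only replicate 1 reached that range.

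Of the small nucleolar RNA host genes, Gas5 had shares of 0.0125%, 0.0104%, 0.00961% and 0.00872% in WT CD4+ replicates 1 to 4 and of 0.0122%, 0.0106%, 0.00904% and 0.00947% in the Sirt2-/- CD4+ replicates. In CD8+ TILs it had 0.0212%, 0.0113%, 0.0157% and 0.0115% in WT and 0.0131%, 0.0128%, 0.0139% and 0.0114% in Sirt2-/- replicates. The CD8+ means were higher in both genotypes, with overlapping ranges.

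Snhg1, the least abundant member with counts, had 0.000996%, 0.00117%, 0.00138% and 0.00145% in WT CD4+ replicates 1 to 4. It had 0.00174%, 0.00149% and 0.00150% in Sirt2-/- CD4+ replicates 1 to 3 and 0 counts in replicate 4, where a floor of 3 counts is a share of 4.81e-06%. This floor treats each read as independent. That library had counts on few genes and its reads carry no molecular identifiers, so a higher share of Snhg1 in its RNA is possible. In CD8+ TILs it had 0.00278%, 0.00247%, 0.00316% and 0.00263% in WT and 0.00282%, 0.00266%, 0.00278% and 0.00279% in Sirt2-/- replicates. Every CD8+ library was above every CD4+ library in both genotypes. The Sirt2-/- CD8+ group was the most even of all, with a mean of 0.00276% ± 6.93e-05 (SD, n = 4).

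**Figure D3:**
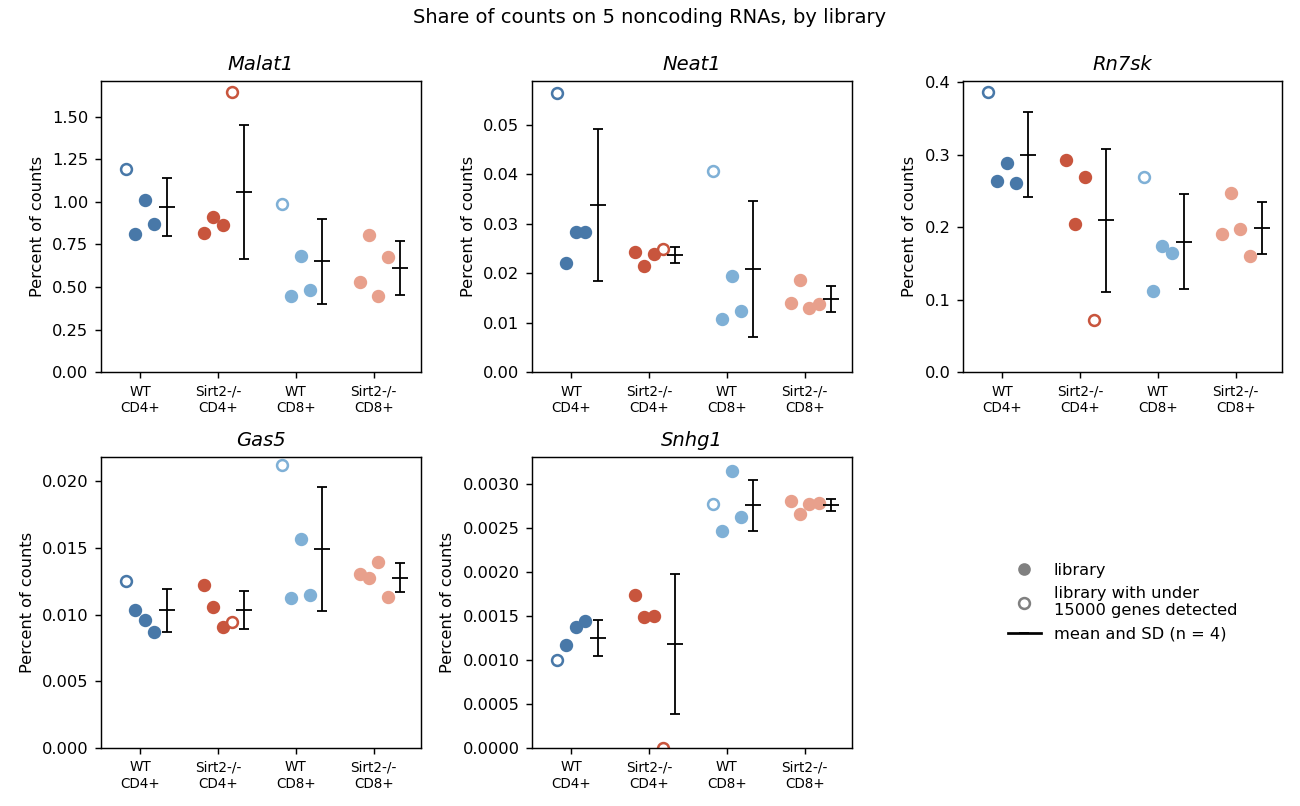
Percent of counts on Malat1, Neat1, Rn7sk, Gas5 and Snhg1 in each library (linear y axes from 0), with replicates 1 to 4 from left to right in each group, open circles for the 3 libraries with under 15000 genes detected, and mean and SD (n = 4) beside each group. All CD8+ libraries are above all CD4+ libraries for Snhg1, and Malat1 and Neat1 are lower in CD8+ than in CD4+ TILs of Sirt2-/- mice without overlap.

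The first question was whether loss of Sirt2 moved these RNAs. Groups were compared with edgeR's quasi-likelihood test, with p-values adjusted over all genes tested (Benjamini-Hochberg) and a gene called at an adjusted p below 0.05. A log2 fold change compares normalized counts and not raw shares. In CD4+ TILs 0 of the 8 RNAs were called, with a background of 0% of 15070 genes called in either direction and 190 genes at an unadjusted p below 0.05. In CD8+ TILs 0 of 8 were called, with a background of 0.00654% of 15302 genes and 579 genes at an unadjusted p below 0.05. By DESeq2, 7 genes were called in CD4+ and 28 in CD8+ TILs, and by limma-voom 4 and 5. None of the RNAs was among them, though DESeq2 gave no adjusted p for Gm42418 in CD4+ TILs and so covered 7 of the 8 there. When counts were simulated with the spread of these libraries, a log2 change of 2 was called for 13% of the altered genes in CD4+ and for 72% in CD8+ TILs. The altered genes were drawn at random from all genes tested, and most of them were missed in CD4+ TILs. These shares are not the recovery for the 8 RNAs, whose SE was 0.18 to 1.42 in CD4+ TILs. Leaving out the libraries with few genes detected, 0 of 8 were called in CD4+ TILs against a background of 0.0374%, and 0 of 8 in CD8+ TILs against 0.0439%.

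In CD4+ TILs the largest log2 fold changes of Sirt2-/- against WT were 1.37 (SE 0.95) for Gm42418 and -1.25 (SE 0.69) for Gm23935. The former was -0.64 (SE 0.42) without the libraries that had few genes detected, and -0.76 without Sirt2-/- CD4+ replicate 4 alone. The latter was -0.35 (SE 0.53) without WT CD4+ replicate 4. Log2 fold changes were -0.33 (SE 0.52) for Gm26917, 0.19 (SE 0.27) for Malat1, -0.46 (SE 0.25) for Neat1 and -0.50 (SE 0.34) for Rn7sk. Single libraries moved these as well: Neat1 was at -0.17 (SE 0.18) without WT CD4+ replicate 1, and without Sirt2-/- CD4+ replicate 4 Rn7sk was at -0.23 (SE 0.16), Gm26917 at -0.065 (SE 0.44) and Malat1 at -0.17 (SE 0.13). Without WT CD4+ replicate 4, Gm26917 was at 0.29 (SE 0.43). Gas5 was at 0.04 (SE 0.18) and Snhg1 at -0.10 (SE 1.42), the widest error of the 8, which became 0.31 (SE 0.30) without Sirt2-/- CD4+ replicate 4.

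In CD8+ TILs the log2 fold changes of Sirt2-/- against WT were smaller, from -0.47 (SE 0.35) for Neat1 to 0.22 (SE 0.15) for Gm23935. The smallest SE was that of Snhg1, at 0.03 (SE 0.12). Values for the others were 0.07 (SE 0.27) for Gm26917, -0.02 (SE 0.20) for Gm42418, -0.06 (SE 0.25) for Malat1, 0.17 (SE 0.22) for Rn7sk and -0.19 (SE 0.18) for Gas5. Without WT CD8+ replicate 1, Neat1 was at 0.085 (SE 0.19), Malat1 at 0.21 (SE 0.19) and Rn7sk at 0.43 (SE 0.17). No member had groups without overlap between the genotypes, against 2.81% of the genes tested in CD4+ and 2.93% in CD8+ TILs. Whether the genotype effect differed between CD4+ and CD8+ TILs was tested over all 16 libraries, and a difference was called for 0 of the 8 RNAs with a background of 0% of 17270 genes, of which 342 had an unadjusted p below 0.05. DESeq2 called 2 genes there and limma-voom called 0.

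Genes that make, bind or process these RNAs were taken from lists for paraspeckles, nuclear speckles, the 7SK particle, RNase MRP and RNase P, other small nucleolar RNA host genes, nonsense-mediated decay, RNA polymerase I and nucleolar processing. Of these 8 lists, 0 genes were called between the genotypes in either cell type. Median log2 fold changes in CD8+ TILs ranged from -0.16 for other host genes to 0.06 for RNase MRP and RNase P, beside 0.01 over all genes. In CD4+ TILs the lowest median was -0.48, for other host genes, beside -0.11 over all genes. Markers of myeloid cells were not called between the genotypes, though 8 of 8 tested had a positive log2 fold change in both cell types. In Sirt2-/- against WT libraries the 10 listed summed to 18.8 to 134 against 15.1 to 19.6 CPM in CD4+ TILs. In CD8+ TILs they summed to 13.7 to 51.3 against 10.6 to 15.5 CPM. These ranges overlapped, and the value of 134 CPM was in Sirt2-/- CD4+ replicate 4. Of the stromal markers, 4 of 4 tested had a positive log2 fold change in both. The part of these cells in the values of the noncoding RNAs was not tested, and in RNA of whole samples fewer cells of a type and less RNA per cell cannot be told apart.

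The second comparison was between the cell types. In WT mice, Snhg1 was higher in CD8+ than in CD4+ TILs and Rn7sk was lower. These 2 of the 8 RNAs were called, with a background of 11.9% of 14892 genes called in either direction, 4.89% higher and 6.96% lower in CD8+ TILs. Snhg1 rose by a log2 fold change of 1.06 (SE 0.25, adjusted p = 0.0194), and Rn7sk had -0.80 (SE 0.22, adjusted p = 0.0379). Malat1 was at -0.64 (SE 0.22, adjusted p = 0.0885), Neat1 at -0.75 (SE 0.39, adjusted p = 0.278) and Gas5 at 0.47 (SE 0.19, adjusted p = 0.152). The records of the ribosomal RNA locus and Gm23935 were at -0.03 (SE 0.37) for Gm26917, -0.54 (SE 0.32) for Gm42418 and -0.88 (SE 0.45) for Gm23935. With the replicate number as a block, Malat1 (-0.70, adjusted p = 0.0370) and Neat1 (-0.88, adjusted p = 0.0331) were called as well. That fit called 1619 of 14892 genes, and the labels do not say which libraries share a mouse.

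Without the WT libraries that had few genes detected, 5 of the 8 RNAs were called in WT mice, with a background of 28% of 15694 genes, 14.9% higher and 13.1% lower. Snhg1 (1.01, SE 0.19) and Gas5 (0.40, SE 0.13, adjusted p = 0.0440) were higher in CD8+ TILs. Malat1 (-0.77, SE 0.16, adjusted p = 0.00417), Neat1 (-0.92, SE 0.21, adjusted p = 0.00701) and Rn7sk (-0.88, SE 0.16, adjusted p = 0.00199) were lower. With all libraries, the call of Snhg1 was lost without any 1 of WT CD4+ replicates 2 and 3 and WT CD8+ replicates 3 and 4 (adjusted p up to 0.0799). The call of Rn7sk was lost without any 1 library other than WT CD8+ replicate 1 (adjusted p up to 0.108), and its log2 fold change was between -0.85 and -0.56 in those fits.

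In Sirt2-/- mice, Neat1 was lower in CD8+ than in CD4+ TILs, with a log2 fold change of -0.69 (SE 0.14, adjusted p = 0.0464), beside a median of 0.16 over all genes. It was the 1 member called, with a background of 2.24% of 15787 genes, 0.918% higher and 1.32% lower. Malat1 was at -0.83 (SE 0.30, adjusted p = 0.279), Snhg1 at 1.26 (SE 1.35, adjusted p = 0.949), Gas5 at 0.30 (SE 0.15, adjusted p = 0.524) and Rn7sk at -0.06 (SE 0.36, adjusted p = 0.998). Gm26917 was at 0.44 (SE 0.47), Gm42418 at -1.87 (SE 0.95) and Gm23935 at 0.66 (SE 0.51). Groups did not overlap in their shares for 3 of 8 RNAs in Sirt2-/- mice, Snhg1 above and Malat1 and Neat1 below, against a background of 21.3% of the genes tested, 14.6% above and 6.75% below. In WT mice this held for 1 of 8, Snhg1, against 22.3%, with 12.8% above and 9.48% below.

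Without Sirt2-/- CD4+ replicate 4, which had no count of Snhg1, Snhg1 was called with a log2 fold change of 0.83 (SE 0.14, adjusted p = 0.00139) and Neat1 with -0.63 (SE 0.12, adjusted p = 0.00352), with a background of 25.4% of 16703 genes, 13.8% higher and 11.6% lower. Malat1 was then at -0.48 (SE 0.17, adjusted p = 0.0583) and Gm42418 at 0.26 (SE 0.20), the opposite sign. The call of Neat1 was lost without any 1 of the other 7 Sirt2-/- libraries (adjusted p up to 0.181). The comparisons between cell types and those between genotypes use the same 16 libraries, so they are not independent of each other.

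**Figure D4:**
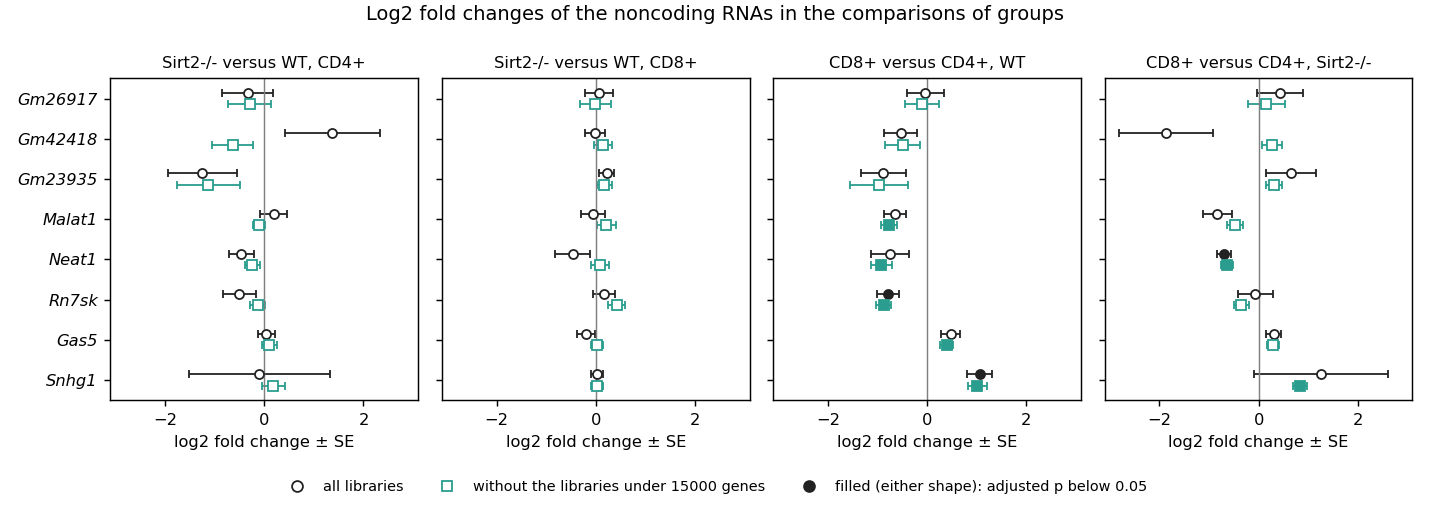
Log2 fold changes (x axes) with SE of the 8 RNAs with counts in the comparisons between genotypes and between cell types, from all libraries (circles) and without the 3 libraries that had under 15000 genes detected (squares); filled symbols have an adjusted p below 0.05. Snhg1 is at 1.06 and Neat1 at -0.69 among the values called with all libraries, and Gm42418 changes sign between the circles and squares in both comparisons that use Sirt2-/- CD4+ replicate 4 and, close to 0, between genotypes in CD8+ TILs.

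The transcription starts of the host genes were compared because both showed higher values in CD8+ TILs. RNAs of this class often begin with a 5′ terminal oligopyrimidine tract, a C followed by a run of C or T, which is also found on ribosomal protein mRNAs. The RefSeq promoter table (GRCm38.p6) holds 300 bases around the start of Snhg1 and of 2 starts of Gas5. A tract was counted as a first transcribed C followed directly by at least 4 bases that are C or T on the transcribed strand, which 2.51% of 32851 windows of the same length hold. The window of Snhg1 and that of the downstream Gas5 start are shown, with the 50 transcribed bases in capitals.
Snhg1, chr19:8723237-8723536, plus strand: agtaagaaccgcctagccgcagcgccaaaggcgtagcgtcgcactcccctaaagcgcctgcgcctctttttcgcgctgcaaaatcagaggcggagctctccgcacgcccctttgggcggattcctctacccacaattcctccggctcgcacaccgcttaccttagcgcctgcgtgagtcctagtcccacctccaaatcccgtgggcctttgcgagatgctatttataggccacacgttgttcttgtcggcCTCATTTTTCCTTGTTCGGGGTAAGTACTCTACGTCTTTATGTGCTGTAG
Gas5, chr1:161034916-161035215, plus strand: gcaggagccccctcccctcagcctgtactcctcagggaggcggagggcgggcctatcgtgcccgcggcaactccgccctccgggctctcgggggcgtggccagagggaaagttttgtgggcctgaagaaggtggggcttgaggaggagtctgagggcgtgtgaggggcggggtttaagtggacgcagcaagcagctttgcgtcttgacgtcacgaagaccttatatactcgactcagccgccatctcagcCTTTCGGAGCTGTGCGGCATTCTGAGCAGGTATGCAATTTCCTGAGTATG
The downstream Gas5 start has a C followed by 4 such bases, the Snhg1 start a C followed by 2, and the upstream Gas5 start, at chr1:161034351-161034650, does not begin with C, so that 1 of the 3 windows meets the count. A match is a description of the letters in these windows.

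Partner lists were then compared between the cell types, where 4.89% of all genes tested were called higher and 6.96% lower in WT mice and 0.918% and 1.32% in Sirt2-/- mice. Leaving out the libraries with few genes detected, these shares were 14.9% and 13.1% in WT and 13.8% and 11.6% in Sirt2-/- mice. Of 14 nucleolar processing factors, 9 rose in CD8+ TILs of WT mice and 0 fell, with a median log2 fold change of 1.16 over the list beside -0.02 over all genes. Among the same 14 in Sirt2-/- mice, 5 rose and 0 fell, with a median of 1.24 beside 0.16. Leaving out those libraries, 13 of 14 rose in each genotype, with medians of 1.19 and 1.22. In WT mice Dkc1, the pseudouridine synthase dyskerin, rose by 1.82 (SE 0.16), Npm1, a nucleolar chaperone, by 1.17 (SE 0.16) and Nop58, a core protein of small nucleolar ribonucleoproteins, by 1.56 (SE 0.23). In Sirt2-/- mice Fbl, the methyltransferase fibrillarin, rose by 1.64 (SE 0.15), Nolc1 by 1.29 (SE 0.12) and Nop56, a partner of Nop58, by 1.19 (SE 0.12). Of 15 genes of the RNA polymerase I machinery, 2 rose in WT mice, Polr1b (1.38, SE 0.25), a core subunit, and Rrn3 (0.73, SE 0.16), an initiation factor, and 0 in Sirt2-/- mice, which became 8 and 4, with 1 lower in Sirt2-/- mice, without those libraries. Gm26917 and Gm42418, from the ribosomal RNA locus, were not called in these comparisons. The libraries were rRNA-depleted, so these counts give no level of ribosomal RNA in the cells, and the part of depletion in them was not tested.

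Among 9 other host genes tested with all libraries, 0 were called in either genotype, 7 had a positive log2 fold change in WT and 8 in Sirt2-/- mice, and the medians were 0.74 and 0.80. Without the 3 libraries the medians were 0.30 in both genotypes, with 1 of 9 and 3 of 10 called higher. Of 10 nonsense-mediated decay factors, Smg6 (-0.58, SE 0.13) fell in WT mice and 0 rose, with 0 called in Sirt2-/- mice. Leaving out the 3 libraries, 1 rose and 2 fell in each genotype.

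Partners of Malat1, Neat1 and Rn7sk were few among the calls with all libraries, and single calls in lists of 7 or 10 genes lie near the shares over all genes. Of 16 paraspeckle proteins, 2 rose in CD8+ TILs of WT mice, among them the RNA-binding protein Hnrnpa1 (0.57, SE 0.14), and 0 fell, with a median of 0.26, and 0 were called in Sirt2-/- mice (median 0.22). Leaving out the same libraries, 10 rose in WT and 9 in Sirt2-/- mice. Of 19 nuclear speckle proteins, 3 rose in WT mice and Clk1, a kinase of splicing factors, fell by 0.96 (SE 0.22); in Sirt2-/- mice Clk1 fell by 1.12 (SE 0.14) and 0 rose. The 3 were Srsf6 (0.59, SE 0.12), Srsf1 (0.52, SE 0.14) and Srsf7, all SR splicing factors. Leaving out the 3 libraries, 8 rose and 2 fell in WT mice and 9 rose and 3 fell in Sirt2-/- mice. Of 7 genes of the 7SK particle and P-TEFb, Mepce (-0.72, SE 0.19), which caps 7SK RNA, fell in WT mice, where Rn7sk was lower as well, and 0 were called in Sirt2-/- mice. With the 3 libraries left out, 1 rose and 2 fell in WT and 1 rose and 3 fell in Sirt2-/- mice. Of 10 tested protein genes of RNase MRP and RNase P, Rpp30 (1.15, SE 0.34) rose in WT mice and 0 in Sirt2-/- mice, against 5 and 4 with the 3 libraries left out.

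**Figure D5:**
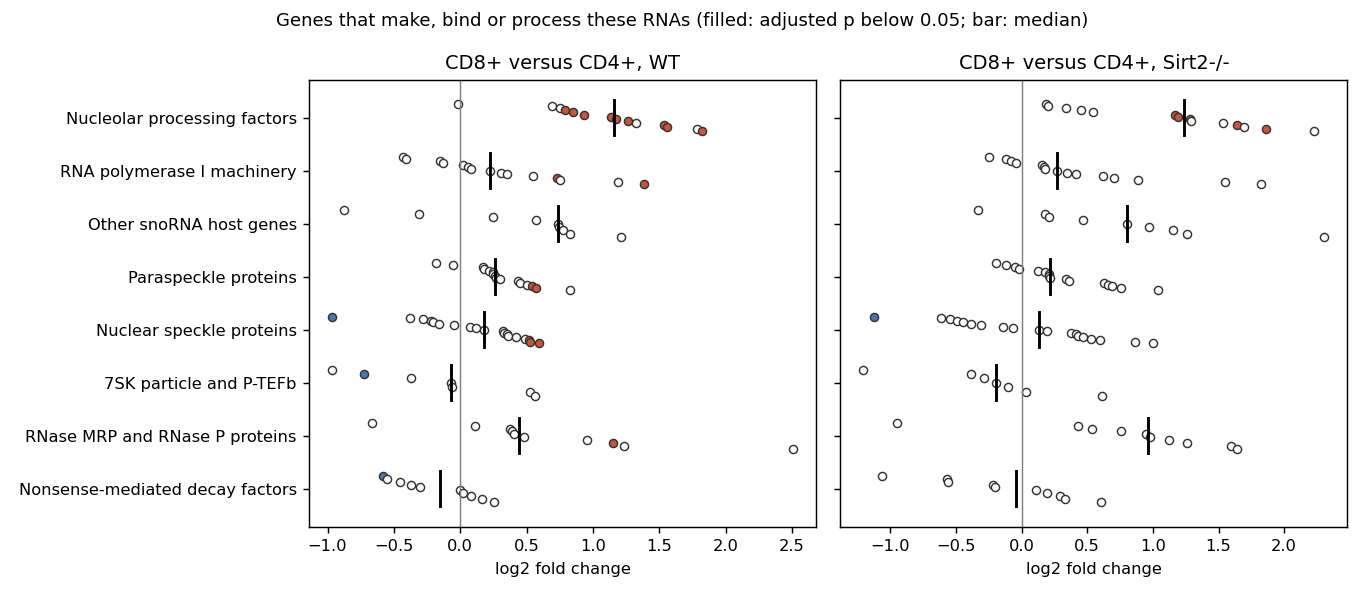
Log2 fold changes between CD8+ and CD4+ TILs (x axes) of each tested gene in 8 partner lists (y axis), in WT and Sirt2-/- mice, with filled points at an adjusted p below 0.05 and a bar at the list median. Nucleolar processing factors lie to the right in both genotypes, with 9 and 5 of 14 called.

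Other abundant RNAs gave a frame for these values. The 2 mitochondrial ribosomal RNAs were not called between cell types, with median log2 fold changes of -0.19 in WT and -0.32 in Sirt2-/- mice. Of 14 other long noncoding RNAs tested, 0 were called in both genotypes, with medians of 0.05 and -0.06. Of the other small noncoding RNAs 7 were tested in WT and 8 in Sirt2-/- mice, and 0 were called. Markers of other cells moved with the cell type too: the 6 stromal markers summed to 98.2 to 125 CPM in WT CD4+ and 37.9 to 46.9 CPM in WT CD8+ TILs, with Pecam1 called lower (-1.46, SE 0.16) and Dcn at 0 in WT CD4+ TILs. In Sirt2-/- mice the ranges, 57.7 to 197 and 40.4 to 119 CPM, overlapped. Melanoma markers summed to 4.83 to 106 CPM in WT CD4+ and 3.84 to 11.7 CPM in WT CD8+ TILs, and B cell markers to at most 13.4 CPM in any library. The part of these cells in the differences of Snhg1, Rn7sk and Neat1 was not tested.

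Within groups, the members also varied with other genes. After the mean of each group was removed from log2 CPM, Malat1 and Neat1 had a Pearson r of 0.743 over 16 libraries and of 0.784 over the 13 without few genes detected. Libraries are the points of these correlations, and they share depth and the number of genes detected. Gm26917 and Gm42418 had r = -0.314 over 16 libraries and r = 0.880 over 13. The genes most like Malat1 were P2rx4 (r = 0.951), Gm37420 (0.929) and Zbtb37 (0.910), and those most like Neat1 were Cln3 (0.937), 4833420G17Rik (0.913) and H2-Q5 (0.909). For Gm26917 they were Fem1a (0.945), Jade2 (0.908) and Clstn3 (0.906), for Gas5 Fbxl20 (0.905), Fra10ac1 (0.851) and Nbeal1 (0.832), and for Rn7sk Plgrkt (0.951), Cd37 (0.949) and Tspan32 (0.946). For Snhg1 they were Stim1 (0.999), Atp2c1 (0.998) and Med22 (0.998) over 16 libraries, with 0.759, 0.638 and 0.760 over 13, without Sirt2-/- CD4+ replicate 4. Over the same 13 libraries the values were 0.843, 0.735 and 0.720 for the genes named for Malat1, 0.706, 0.566 and 0.694 for Neat1, 0.898, 0.951 and 0.880 for Gm26917, 0.768, 0.733 and 0.712 for Gas5, and 0.760, 0.731 and 0.944 for Rn7sk, in the order given. The 17270 genes of the fit over all libraries were searched, so high values arise among so many by the choice of the largest.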

How the data were processed

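Total RNA of CD4+ and CD8+ TILs was sequenced from stranded, rRNA-depleted libraries. The table that the authors deposited gives raw read counts, not normalized, for each gene and library. The submitters' processing notes name STAR, HTSeq and the build mm10, with versions and counting settings not given in the sources used here. All 55450 identifiers matched GENCODE M21 (GRCm38). Groups were taken from the labels, with 4 libraries each. Labels do not say which libraries share a mouse, and p-values measure the spread between these libraries.

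A share is 100 times a gene's counts over the library total. Tests used the robust, two-sided quasi-likelihood method of edgeR 4.0.16 under R 4.3.3, after filterByExpr and TMM, within each pair of groups, and over all 16 libraries for the difference between cell types. P-values were adjusted by Benjamini-Hochberg over all genes tested, with a threshold of 0.05. The SE given with these fits is the absolute log2 fold change over the square root of the test's F statistic. It is a value derived from the test and not an estimate made by the fit itself. Log2 CPM used a prior count of 2. A floor of 3 counts was used for a count of 0. DESeq2 1.42.0, limma-voom (limma 3.58.1) with quality weights, other normalizations and filters, the replicate number as a block, and leaving out libraries were alternatives. Named were all members, at most 3 called genes of each list by p, and the 3 genes most like each member. The members, lists and rules were chosen with earlier results of these data known. The functions were tested on simulated data with 200 changed genes. GENCODE and RefSeq supplied sequences and positions. The values of 1 called gene of a list are not reported here.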

Additional observations from a re-analysis of the deposited data

Results flagged for a closer look

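The share of counts in 32 sets of 4 libraries (8 RNAs in 4 groups) was examined for a library far from the other 3 of its group, by Dixon's gap over range past its 95% critical value. Chance alone gives about 1 such set in 20, or 1.6 of 32 if the sets were independent, and 4 were found. The sets share libraries, and the shares of a library are parts of the same total. The 2 numbers are therefore not a test of an excess over chance. Of these, 3 were in Sirt2-/- CD4+ replicate 4, where Gm42418 had 9.45% and Malat1 1.65% of counts, both above the other replicates, and Snhg1 had 0. The remaining set was WT CD4+ replicate 4, with 11.8% of counts on Gm23935. Sirt2-/- CD4+ replicate 4 had counts on 8169 genes, the fewest of the series, and its part in these values was not tested further. WT CD4+ replicate 4 was not among the 3 libraries with under 15000 genes detected.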

How the results depend on the processing

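Of the 8 RNAs, 0 were called between the genotypes under any alternative, while the calls of Snhg1, Rn7sk and Neat1 between cell types held by DESeq2 and limma-voom and were each lost in the model of all 16 libraries (adjusted p = 0.697, 0.240 and 0.375) and without some single libraries. Rn7sk also lost its call with library totals alone (0.0685) and without a filter (0.106), and Neat1 with the size factors of DESeq2 (0.0507), without a filter (0.0738) and with the replicate number as a block (0.18). The number of genes called between genotypes in CD4+ TILs was 7 by DESeq2, 4 by limma-voom and 6 without the 3 libraries with under 15000 genes detected. In CD8+ TILs it was 28, 5 and 7, with 5 without a filter, 4 with the replicate number as a block and 0 to 7 when each library was left out in turn. For CD8+ against CD4+ TILs of WT mice it was 2651 by DESeq2, 5504 by limma-voom, 811 in a model of all 16 libraries, 4394 without the 3 libraries and 1022 to 2767 leaving out each library. In Sirt2-/- mice these were 1339, 4481, 781, 4250 and 111 to 4250, with 907 at a minimum of 10 counts in every library. For the genotype effect between cell types, DESeq2 called 2.

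The number of the 8 RNAs called in WT mice was 4 by limma-voom, where 5504 of 14892 genes were called. It was 1 with library totals alone (1633 of 14892 genes), 1 without a filter (1850 of 26628) and 0 in the model of all 16 libraries (811 of 17270). Without the 3 libraries it was 5 (4394 of 15694 genes), and leaving out each library it was 0 to 4 (1022 to 2767 genes). In Sirt2-/- mice it was 4 by limma-voom, where 4481 of 15787 genes were called. It was 0 with the size factors of DESeq2 (361 of 15787 genes), 0 without a filter (267 of 27110) and 0 in the model of all libraries (781 of 17270). Without the 3 libraries it was 2 (4250 of 16703 genes), and leaving out each library it was 0 to 2 (111 to 4250 genes). The cause of these shifts was not tested.

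No pairing by number was assumed, as the labels tie no number to a mouse: same-numbered libraries had residual correlations of -0.07 to 0.13, and not every pair was above 0.1 in any comparison. Each library correlated best with its own number in 8 of 8 cases between the cell types of WT mice, a hint from the data and not from the design, and there the summed Y-linked CPM was 63.4, 306, 10.8 and 8.94 in CD4+ replicates 1 to 4 and 59.4, 271, 15.9 and 6.07 in the CD8+ replicates. This was so in 3 of 8 in Sirt2-/- mice and in 2 of 8 between genotypes in either cell type. With the replicate number as a block, 4 of the 8 RNAs were called in WT mice, with 1619 of 14892 genes called. These were Snhg1 (adjusted p = 0.0370), Rn7sk (0.0156), Malat1 (-0.70, 0.0370) and Neat1 (-0.88, 0.0331), the last pair not called without the block. In Sirt2-/- mice 0 of the 8 were called, with 108 of 15787 genes called. With the block, the log2 fold change of Gm26917 was -0.027 between genotypes in CD8+ TILs and 0.18 between cell types in WT mice. That of Rn7sk was 0.076 between cell types in Sirt2-/- mice, and each was of opposite sign to the reported value.

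Other signs turned as well, all in values that were not called. Between genotypes in CD4+ TILs, limma-voom gave -0.058 for Malat1, -0.29 for Gm42418 and 0.22 for Snhg1, the fit without the 3 libraries gave -0.11, -0.64 and 0.18, and Gas5 had -0.019 at a minimum of 10 counts. Leaving out each library gave -0.047 to 0.12 for Gas5, -0.17 to 0.30 for Malat1, -0.73 to 0.29 for Gm26917, -0.76 to 1.72 for Gm42418 and -0.37 to 0.31 for Snhg1. Between genotypes in CD8+ TILs, limma-voom gave 0.077 for Gas5, 0.19 for Neat1, 0.27 for Malat1, -0.065 for Gm26917 and 0.14 for Gm42418, and the fit without the 3 libraries 0.025, 0.085, 0.21, -0.012 and 0.14. Leaving out each library gave -0.29 to 0.025 for Gas5, -0.66 to 0.085 for Neat1, -0.19 to 0.21 for Malat1, -0.26 to 0.27 for Gm26917, -0.17 to 0.14 for Gm42418 and -0.0082 to 0.096 for Snhg1. Between cell types in WT mice, Gm26917 had 0.0013 by DESeq2 and with its size factors. It had 0.0023 with totals and TMM that leave out Gm26917, Gm42418 and Gm23935, 0.30 by limma-voom and 0.10 with library totals alone. The value was 0.050 without a filter, 0.015 at a minimum of 10 counts and 0.044 in the model of all libraries. Leaving out each library gave -0.19 to 0.63 for Gm26917 and -1.08 to 0.054 for Gm23935. In Sirt2-/- mice Gm42418 had 0.38 by limma-voom, 0.26 without the 3 libraries and -2.22 to 0.26 leaving out each library, and Rn7sk had -0.35 to 0.14. The correlation of Gm26917 with Gm42418 went to 0.880 without the 3 libraries. Snhg1 had no value at a minimum of 10 counts in comparisons with Sirt2-/- CD4+ replicate 4, where it had no count. Depth limited Snhg1 most, with 279 counts in its lowest library above 0.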
